A study of Mus musculus with 6 samples.

Results

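RNA of DP cells, mouse dorsal root ganglion (DRG) cells that were positive for both isolectin B4 (IB4) and GINIP, was compared with RNA of DN cells, which were negative for both. GINIP is a protein that binds inhibitory G protein alpha subunits, and IB4 is a lectin that binds alpha-galactosyl sugars on non-peptidergic nociceptors. All libraries come from DRG of mice of the labelled genotype GINIP+/mcherry, heterozygous for an mCherry reporter, and the cells were collected by fluorescence-activated sorting. The labels describe DP as Mrgprd+ neurons and DN as remaining cells in one field and as remaining sensory neurons in another. The remaining subset of the series, C-LTMRs (IB4-GINIP+, C-fibre low-threshold mechanoreceptors), was not compared here. Each subset has 2 libraries, and the labels used here do not state the age or sex of the animals. Nothing says that the 2 libraries of a subset came from separate animals or sorts, so each p-value rests on the spread of these samples alone, and that spread may be technical.

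A gene was a member of the comparison when it reached 0.3 RPKM (reads per kilobase of the gene for each M of library reads) in both libraries of DP, of DN, or of both. In the deposited table, 13867 genes of 23029 (60.2%) did so, 11894 of them in both subsets, 403 only through DP and 1570 only through DN. The value that decided membership was 0.30002 RPKM in the lowest gene that passed and 0.29966 RPKM in the highest gene that did not. Of the members, 7248 are absent from the smaller table of TMM-normalized counts that the authors also deposited.

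Mrgprd+ neurons are unmyelinated nociceptors whose endings lie in the outer skin. They depend on the transcription factor Runx1, carry the GDNF family receptor Ret, and lack most of the peptides that other nociceptors release, while peptidergic nociceptors make CGRP and substance P and respond to heat through Trpv1. A ganglion also holds large myelinated neurons, satellite glia around each neuron, Schwann cells, vessels, fibroblasts and resident immune cells, so cells that neither marker selects can be of many kinds.

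The promoters of 5 genes that separate the subsets are shown first, because the peptide precursors Tac1, Calca and Gal were all lower in DP, while Mrgprd marks DP and Prx marks Schwann cells in DN. Each sequence is the RefSeq window on GRCm38.p6 from 250 bases before to 50 bases after the start site, read 5′ to 3′ on the strand of the gene. Mrgprd lies at chr7:145314585-145314884 (+), Prx at chr7:27499074-27499373 (+), Tac1 at chr6:7554811-7555110 (+), Calca at chr7:114636308-114636607 (-) and Gal at chr19:3414495-3414794 (-). Capitals mark the core word of the cyclic AMP response element, TGACG, or its reverse complement, CGTCA.
Mrgprd: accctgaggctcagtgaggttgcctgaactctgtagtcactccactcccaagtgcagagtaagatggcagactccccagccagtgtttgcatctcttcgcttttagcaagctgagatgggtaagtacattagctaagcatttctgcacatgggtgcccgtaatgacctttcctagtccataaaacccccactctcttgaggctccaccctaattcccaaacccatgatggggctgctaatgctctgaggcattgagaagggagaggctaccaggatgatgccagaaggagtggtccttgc
Prx: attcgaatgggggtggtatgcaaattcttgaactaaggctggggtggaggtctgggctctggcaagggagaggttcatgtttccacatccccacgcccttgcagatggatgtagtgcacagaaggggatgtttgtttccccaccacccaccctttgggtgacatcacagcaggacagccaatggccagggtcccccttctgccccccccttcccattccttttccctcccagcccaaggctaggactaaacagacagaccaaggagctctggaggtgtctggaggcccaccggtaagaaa
Tac1: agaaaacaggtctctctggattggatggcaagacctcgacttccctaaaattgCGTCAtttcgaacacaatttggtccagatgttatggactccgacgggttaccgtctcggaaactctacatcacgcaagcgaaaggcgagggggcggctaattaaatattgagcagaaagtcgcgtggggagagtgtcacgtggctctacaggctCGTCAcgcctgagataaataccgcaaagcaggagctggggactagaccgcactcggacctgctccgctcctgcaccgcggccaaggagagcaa
Calca: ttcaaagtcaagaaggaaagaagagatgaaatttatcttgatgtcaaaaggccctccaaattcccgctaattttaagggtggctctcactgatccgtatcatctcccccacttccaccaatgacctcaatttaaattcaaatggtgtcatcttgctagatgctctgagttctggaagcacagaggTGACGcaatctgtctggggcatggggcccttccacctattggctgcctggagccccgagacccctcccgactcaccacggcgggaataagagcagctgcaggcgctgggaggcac
Gal: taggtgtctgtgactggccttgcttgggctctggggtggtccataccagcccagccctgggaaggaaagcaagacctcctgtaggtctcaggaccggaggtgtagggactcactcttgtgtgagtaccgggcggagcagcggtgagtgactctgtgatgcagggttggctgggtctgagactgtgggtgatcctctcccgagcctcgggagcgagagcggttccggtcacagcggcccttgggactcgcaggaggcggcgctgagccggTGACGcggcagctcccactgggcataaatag
Tac1 holds the word on the reverse strand at positions -197 and -43 from its start site, Calca holds it at -65 and Gal at 19, and the Mrgprd and Prx windows do not hold it. The word TGACG or CGTCA stood in 29.9% of the 14007 windows of tested genes, and also in the window of Scg3, a granin whose level was higher in DP. Of the other peptide precursors looked at, both windows of Adcyap1 hold the word, but they overlap and hold it at the same site. The window of Nmb, which encodes neuromedin B and was higher in DP at 893 and 848 against 408 and 342 RPKM, does not hold it. A match is a run of letters and does not show binding.

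Promoter windows of called genes held fewer CpG than those of genes that were not called, in both directions. Windows of genes that were higher in DP held a median of 15 CpG and those of genes lower in DP also held 15, against 21 in genes that were not called. Windows with 5 or fewer CpG made up 23.0% of the windows of genes higher in DP, 21.3% of those of genes lower in DP and 9.17% of those of genes not called. The CRE core word, which itself holds a CpG, stood in 20%, 22.3% and 33.8% of these windows in the same order. The RUNX core word TGTGGT was found on either strand in 13.6% of windows of genes higher in DP, 12.2% of those of genes lower in DP and 12% of those of genes not called. The SOX core word ACAAAG was in 16.9%, 15.1% and 13.1% of these windows in the same order. The ETS core word AGGAAG was in 33.7%, 35.6% and 31.7%. The full CRE, TGACGTCA, was in 2.18%, 1.91% and 3.48%, and the TATA box word TATAAA in 9.62%, 9.99% and 6.22%. These shares are descriptions of 10940 genes with a window and were not tested.

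The libraries were estimated to hold 38.3 to 42.1 M reads in DP and 32.3 to 39.0 M reads in DN, and 3 reads in a gene of 2 kb are worth between 0.0357 and 0.0465 RPKM. Log2 values of the 2 DP libraries correlated across genes at r = 0.995 and those of the 2 DN libraries at r = 0.986, against 0.825 to 0.858 between a DP and a DN library. The median gene differed by 0.115 (log2) between the DP replicates and by 0.212 between the DN replicates. DN replicate 2 held more glial and vessel RNA and less neuronal RNA than DN replicate 1, with summed satellite glia markers at 19967 against 8940 RPKM and summed pan-sensory-neuron genes at 12736 against 16334 RPKM. Gapdh, a glycolytic enzyme that cells use at high level, stood at only 3.92 to 5.28 RPKM in the 4 libraries, so a low value in this table may not mean a low RNA level.

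Differences are given as log2(RPKM + 0.1) in DP minus the same in DN, which understates the change of genes near 0. A gene was called when its adjusted p in limma, a linear model of all genes with Benjamini-Hochberg adjustment, was under 0.05 and its log2 difference was at least 1 in size. Of the 13867 genes tested 4647 were called (33.5%), with 1094 higher in DP (7.89%) and 3553 lower in DP (25.6%). Calls of 8-fold or more numbered 183 in the higher and 897 in the lower direction. The levels of the 2 subsets did not overlap for 11577 genes (83.5%), so a lack of overlap among 4 libraries is the common case here and is not read as a result. Among the 11894 genes that passed in both subsets, 806 were called higher (6.78%) and 2160 lower in DP (18.2%), 24.9% in all. A gene that passed through only 1 subset can be called only in the direction of that subset, as 288 of 403 and 1393 of 1570 were. Counts of a list are therefore followed in brackets by the calls among its members that passed in both subsets (written as of so many in both), to be read against 6.78% and 18.2%. Across all genes the median difference was -0.19. With quantile normalization that median moved to 0.14 and the calls divided into 2113 higher and 2458 lower, while with median ratio scaling it was 0.00 with 1418 higher and 3234 lower. Calls that held under the 3 scalings tried and with each of the 4 libraries left out numbered 884 in the higher and 2412 in the lower direction. Of the genes described below other than those chosen by level, a stricter limma test (treat) that asks for more than a 2-fold difference ended the calls of Calcb, Th, Nefl, Scn3b, Trpa1, Gpc3, Gpr35, Tnfrsf11a, Slc17a8, Slc6a19, Sst, Ada, Gabbr2, C1qa and Cacna1h. A pseudocount of 1 RPKM ended those of C1qa, Cacna1h, Cacna1i, Cebpe, Cox4i2, Elane, Gpc3, Slc17a8, Ada and Mas1. Where quantile normalization or a left-out library moved a count of 3 or more in a gene list by over 1.5 times, the count under it is given beside the list. Because RNA was pooled from sorted cells, fewer cells of a type and less RNA per cell cannot be told apart.

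**Figure D1:**
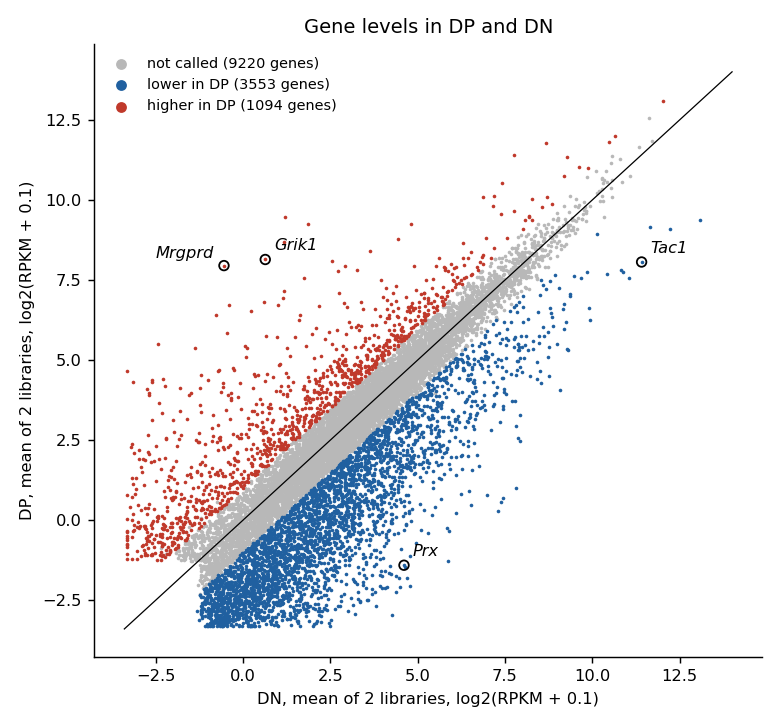
Mean log2(RPKM + 0.1) of the 2 DP libraries (vertical axis) against that of the 2 DN libraries (horizontal axis) for 13867 genes, each a point, with the line of equal level. The 1094 genes called higher in DP lie above the line and the 3553 called lower lie below it, and Mrgprd and Prx stand far from it.

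Of the 4 marker genes Mrgprd and Grik1 were higher in DP, and Tac1 and Prx were lower. Mrgprd (chr7:145314835-145324059), the Mas-related receptor that names the population, stood at 219.8 and 277 RPKM in the DP libraries and 0.345 and 0.953 RPKM in the DN libraries, a log2 difference of 8.50 ± 0.39 (SE; adjusted p = 4.7e-05). Grik1 (chr16:87895897-88290258), a kainate glutamate receptor subunit, stood at 296 and 269 RPKM in DP and 1.0 and 2.09 RPKM in DN (log2 difference 7.5 ± 0.31, adjusted p = 3.4e-05). Both were far above every DN library in both DP libraries. Tac1 (chr6:7555071-7562973), the precursor of substance P, stood at 275 and 259 RPKM in DP and 2793 and 2650 RPKM in DN (log2 difference -3.35 ± 0.10, adjusted p = 2.3e-05). Prx (chr7:27499324-27520041), which encodes periaxin of myelinating Schwann cells, stood at 0.256 and 0.298 RPKM in DP and 28.3 and 20.8 RPKM in DN (log2 difference -6.02 ± 0.20, adjusted p = 2.6e-05). Tac1 was lower in DP but still present. Prx was under the filter value of 0.3 RPKM in both DP libraries, though above the worth of 3 reads in a gene of 2 kb. In each pair of values here and below, replicate 1 comes before replicate 2. These 4 genes were known from earlier results of the same data to differ, so their levels describe the subsets and test no label.

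**Figure D2:**
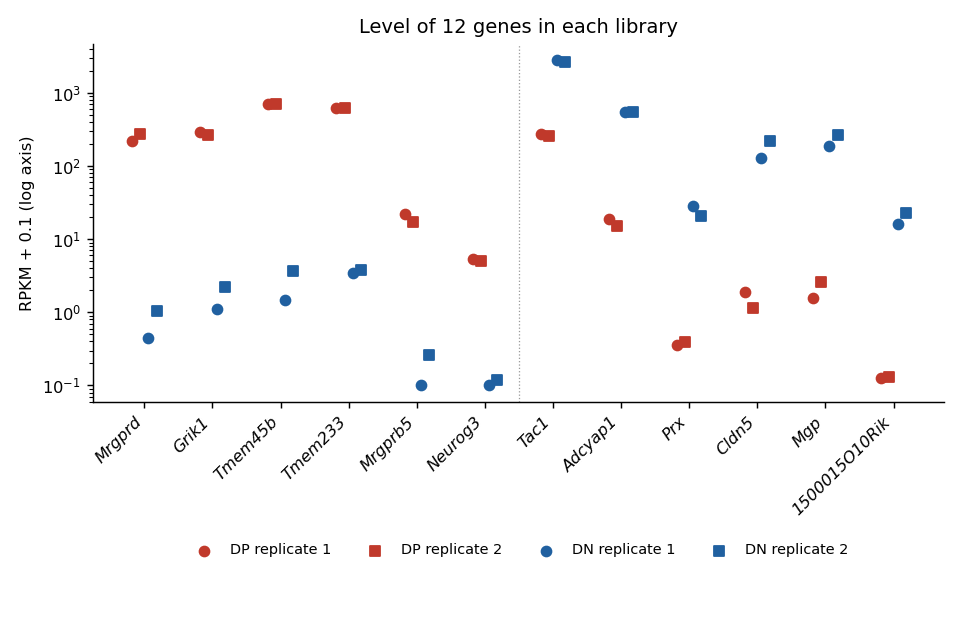
RPKM + 0.1 on a log axis in each of the 4 libraries for 6 genes that were higher in DP (left of the dotted line) and 6 that were lower (right). DP libraries are red, DN libraries are blue, replicate 1 is a circle and replicate 2 a square, and the 2 replicates of a subset lie close together beside the distance between subsets.

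The genes with the largest positive differences included several membrane proteins, 2 receptors and a channel subunit. Tmem45b, a multi-pass membrane protein, was at 712 and 713 RPKM in DP and 1.35 and 3.53 RPKM in DN (log2 difference 8.28). Tmem233, a small membrane protein of the dispanin family, was at 613 and 613 RPKM in DP and 3.32 and 3.68 RPKM in DN, and its difference of 7.42 ± 0.10 had the lowest SE of the 10 leading genes. Ctxn3, a cortexin, was at 397 and 422 RPKM in DP and 1.52 and 3.07 RPKM in DN (log2 difference 7.5). All 3 were among the abundant RNAs of DP and at a few RPKM in DN. Kcnip2, a cytoplasmic partner of Kv4 potassium channels, was at 83.2 and 84.9 RPKM in DP against 0.345 and 0.651 RPKM in DN. Ccdc68, a coiled-coil protein of the centriole, was at 98.6 and 111 against 0.433 and 0.988 RPKM, and Serpina11, a serpin, at 20.5 and 18.8 against 0.0172 and 0.00853 RPKM. The DN values of these last genes are low, so the differences of 7.19, 7.10 and 7.45 depend on the pseudocount. Ms4a3, a membrane protein known from granulocyte precursors, was at 47.7 and 42.7 RPKM in DP and 0 and 0.245 RPKM in DN. The tenth gene, 9130204L05Rik (S100a7l2 in RefSeq), was at 37.3 and 16.6 RPKM in DP and listed at 0 in both DN libraries.

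Genes with the largest negative differences were mostly those of blood vessels and matrix. Cldn5, the tight junction claudin of endothelium, was at 1.81 and 1.03 RPKM in DP and 127 and 217 RPKM in DN (log2 difference -6.82). Emcn, the endothelial sialomucin endomucin, was at 0.50 and 0.186 against 41.9 and 80.1 RPKM (-7.13), and Ly6c1, a surface protein found on endothelium, at 1.61 and 0.784 against 117 and 209 RPKM (-6.99). In each of these genes DN replicate 2 was the highest library and DP replicate 2 the lowest. Mgp, the matrix Gla protein of fibroblasts and vessel walls, was at 1.45 and 2.48 RPKM in DP against 185 and 268 RPKM in DN. 1500015O10Rik (Ecrg4 in RefSeq), which encodes the secreted peptide precursor augurin, had the largest negative difference, -7.23 ± 0.22, from 0.0268 and 0.0294 RPKM in DP and 16.1 and 22.6 RPKM in DN. The other 5 of the 10 leading genes, Ly6a, Ctla2a, Slco1a4, Ch25h and Tmem252, had differences between -6.85 and -6.52, among them Slco1a4, an organic anion transporter of brain endothelium.

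By level alone, the highest RNAs of the 2 subsets overlapped in part. Sncg, gamma-synuclein, was the highest gene in DP at 8765 and 8508 RPKM and stood at 4481 and 3861 RPKM in DN (log2 difference 1.05). Txn1, the redox protein thioredoxin, was at 3482 and 3490 RPKM in DP and 401 and 422 RPKM in DN, and Fxyd2, a regulator of the sodium pump, at 2691 and 2770 against 224 and 211 RPKM. These last genes, with log2 differences of 3.08 and 3.65, combined a high level in DP with a large difference. Tuba1a, an alpha tubulin, was at 3437 and 3855 RPKM in DP and 3625 and 3066 RPKM in DN, and its subsets overlapped. These genes were chosen by their level after their values were seen.

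Markers of Mrgprd nociceptors rose together. Of the 34 listed genes all passed the filter, 32 were called higher in DP (94.1%, against 7.89% of all genes) and 1 was called lower, with a median difference of 3.79 against -0.19 over all genes (27 higher and 1 lower of 29 in both). The list was made with earlier results of these data known, so its count describes DP and is not independent evidence. Lpar3, a lysophosphatidic acid receptor, was at 190.4 and 186 RPKM in DP and 2.6 and 4.12 RPKM in DN. Agtr1a, an angiotensin receptor, was at 41.4 and 44.9 against 0.64 and 1.38 RPKM, and Prkcq, a protein kinase C isoform, at 113 and 111 against 1.15 and 1.74 RPKM. Their log2 differences of 5.80, 5.37 and 6.21 left both subsets far apart. Otoa, known as otoancorin of the inner ear, was at 21.3 and 20.4 RPKM in DP and 0.0422 and 0.0929 RPKM in DN, and A3galt2, a galactosyltransferase that makes an alpha-galactosyl glycolipid, at 41.3 and 42 against 0.284 and 0.292 RPKM. The member that was lower was Galr1, a galanin receptor, at 0.396 and 0.36 RPKM in DP and 8.08 and 7.2 RPKM in DN.

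The level at which DP markers remained in DN differed widely between them. Synpr, a synaptic vesicle protein, was at 355 and 328 RPKM in DP and 13.5 and 11 RPKM in DN, and Cd55, which shields cells from complement, at 481 and 404 against 20.3 and 22.4 RPKM. Scn11a and Scn10a, the sodium channels Nav1.9 and Nav1.8 of nociceptors, stood, in DP against DN, at 223 and 246 against 60.3 and 50.8 RPKM for Scn11a and at 131 and 139 against 39 and 30.1 RPKM for Scn10a. Ret, the signalling receptor of the GDNF family, was at 70.2 and 67.2 against 22 and 18.3 RPKM, and Trpa1, the irritant channel, at 21.3 and 18 against 8.06 and 6.34 RPKM. Thus the channels and Ret had log2 differences of 1.44 to 2.08, well under those of Mrgprd or Lpar3, and were present in both subsets.

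Most peptidergic markers were lower in DP, with 15 of 19 tested called lower (78.9%, against 25.6% of all genes) and 3 called higher (median -3.13; 2 higher and 11 lower of 14 in both). Calca, the precursor of CGRP, was at 588 and 501.4 RPKM in DP and 5045 and 4465 RPKM in DN (log2 difference -3.13 ± 0.13, adjusted p = 3.6e-05). Adcyap1, the precursor of PACAP, was at 18.6 and 14.8 against 543 and 540.4 RPKM (-5.02), and Gal, the precursor of galanin, at 47.1 and 33.7 against 690.5 and 572 RPKM (-3.98). All of these peptide RNAs were among the abundant RNAs of DN and well below it in both DP libraries. Gfra3, the artemin receptor, was at 14.2 and 12.3 RPKM in DP against 233 and 212 RPKM in DN, and Trpv1, the heat and capsaicin channel, at 7.37 and 6.17 against 63.8 and 37.5 RPKM. Kit, the stem cell factor receptor, was at 1.04 and 1.33 against 29.4 and 27.9 RPKM. Calcb, the precursor of the second CGRP, went the other way, at 576 and 521 RPKM in DP and 282 and 233 RPKM in DN. Its difference of 1.10 fell to 0.96 without DN replicate 2 and was then not called. Calca and Calcb have closely alike coding sequences, so reads may be divided between them.

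The wider list of neuropeptide and hormone precursors and their processing genes had 37 tested members, of which 6 were higher and 20 lower in DP (5 higher and 10 lower of 23 in both). Penk, the proenkephalin gene, was at 0.724 and 0.185 RPKM in DP and 16.2 and 9.7 RPKM in DN, and Edn1, the endothelin precursor that endothelial cells make, at 0.193 and 0.10 against 12.2 and 18.4 RPKM. Pthlh, the parathyroid hormone-like peptide, was at 0.283 and 0.449 against 5.53 and 9.14 RPKM. Of the higher members, Scg3, a granin of secretory granules, was at 1593 and 1398 RPKM in DP and 157 and 183 RPKM in DN, and Pcsk2, a prohormone convertase, at 52.4 and 51.7 against 17.4 and 11.8 RPKM. Sst, the somatostatin precursor, was at 4.44 and 4.49 RPKM in DP and 1.33 and 0.155 RPKM in DN, and its call ended without either DP library. Nts, which encodes neurotensin, was at 17.6 and 7.02 RPKM in DP and 1.58 and 2.44 RPKM in DN, with the 2 DP libraries far apart.

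Markers of other neuron types stood on both sides. Of 15 tested genes that mark C-LTMRs, 11 were higher and 1 lower in DP (6 higher and 1 lower of 10 in both). Fam19a4 (TAFA4), a secreted protein, was at 24.3 and 21.6 RPKM in DP and 0.294 and 0.369 RPKM in DN, and Fam38b (Piezo2), the mechanically gated channel, at 16.6 and 19.8 against 2.37 and 1.71 RPKM. Th, tyrosine hydroxylase, was at 48.8 and 61.7 RPKM in DP and 31.7 and 14.2 RPKM in DN. Both DP libraries were above both DN libraries for each of these genes, but the call of Th ended without DP replicate 2 and without DN replicate 2. Of 15 tested itch neuron markers 8 were higher and 2 lower (2 higher and 2 lower of 8 in both), led by the receptor Mrgpra3 at 17.5 and 16.2 RPKM in DP and 0 and 0.12 RPKM in DN. The call of Ada, adenosine deaminase, a lower member at 1.61 and 1.45 against 3.55 and 2.9 RPKM, ended with each of the 3 scalings and without DP replicate 2 or DN replicate 1. Il31ra, the receptor of interleukin 31, was at 1.76 and 1.45 against 0.379 and 0.161 RPKM, and Nppb, the natriuretic peptide of another itch population, at 4.78 and 3.87 against 4.16 and 1.38 RPKM with no call, although it was called higher without DN replicate 1 (1.57).

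Among 28 tested markers of myelinated mechanoreceptors and proprioceptors 5 were higher and 13 lower in DP (4 higher and 11 lower of 25 in both). Ntrk2, the BDNF receptor TrkB, was at 2.34 and 3.4 RPKM in DP and 14.5 and 30 RPKM in DN, and Rxrg, a retinoid receptor, at 4.17 and 3.07 against 44.1 and 33.2 RPKM. Htr3a, a serotonin-gated channel, was at 3.43 and 3.61 RPKM in DP and 38.6 and 12.9 RPKM in DN. In each case both DN libraries were above both DP libraries, though the DN replicates of Htr3a differed more than 2-fold. Nefh, the heavy neurofilament subunit used as a marker of large neurons, was at 43 and 49.4 RPKM in DP and 59.8 and 34.3 RPKM in DN, and the subsets overlapped. Pvalb, the parvalbumin of proprioceptors, was at 2.98 and 6.33 against 17.7 and 4.33 RPKM and also overlapped, but without DN replicate 2 it was called lower (limma, adjusted p = 0.019). Nefl, the light subunit, was higher in DP, at 1153 and 1026 against 513 and 339 RPKM. Kcnip2, Kcns1, Pcdh8 and Ntrk3 of this list were also called higher, with log2 differences of 7.19, 3.75, 2.66 and 1.61. Ntrk3, a neurotrophin receptor, was at 6.85 and 8.36 RPKM in DP and 2.5 and 2.31 RPKM in DN. The 36 listed genes summed to 1672 and 1574 RPKM in DP and 1264 and 969 RPKM in DN. Nefl alone gave 1153 and 1026 RPKM of the DP sums and 513 and 339 RPKM of the DN sums. The direction of the sums therefore rests on Nefl, while most called members were lower in DP. Glia also express Ntrk2, whose DN value was higher in the library with more glial RNA, and the part of glia in its difference was not tested.

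Genes that all sensory neurons use were divided, with 5 of 26 higher and 5 lower in DP (median 0.33). Slc17a6, the vesicular glutamate transporter of most DRG neurons, was at 61.5 and 59.3 RPKM in DP and 58 and 62.4 RPKM in DN. The 2 subsets overlapped at this gene. Avil, the sensory neuron gene advillin, was at 447 and 457 against 147 and 104 RPKM, and Gap43, a growth cone protein, at 83.7 and 64 against 646 and 560.1 RPKM. Gap43 is also on the list of non-myelinating Schwann cell genes. That list had 0 of 8 tested members higher and 3 lower in DP (37.5%, against 25.6% of all genes). Eno2, the neuronal enolase, was at 30 and 30.5 RPKM in DP and 182 and 119.8 RPKM in DN. Genes of the sensory neuron list therefore moved in both directions, by 1.87 for Avil, -3.04 for Gap43 and -2.28 for Eno2. The part of glia in the fall of Gap43 was not tested. Without DN replicate 2 the higher members numbered 3.

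**Figure D3:**
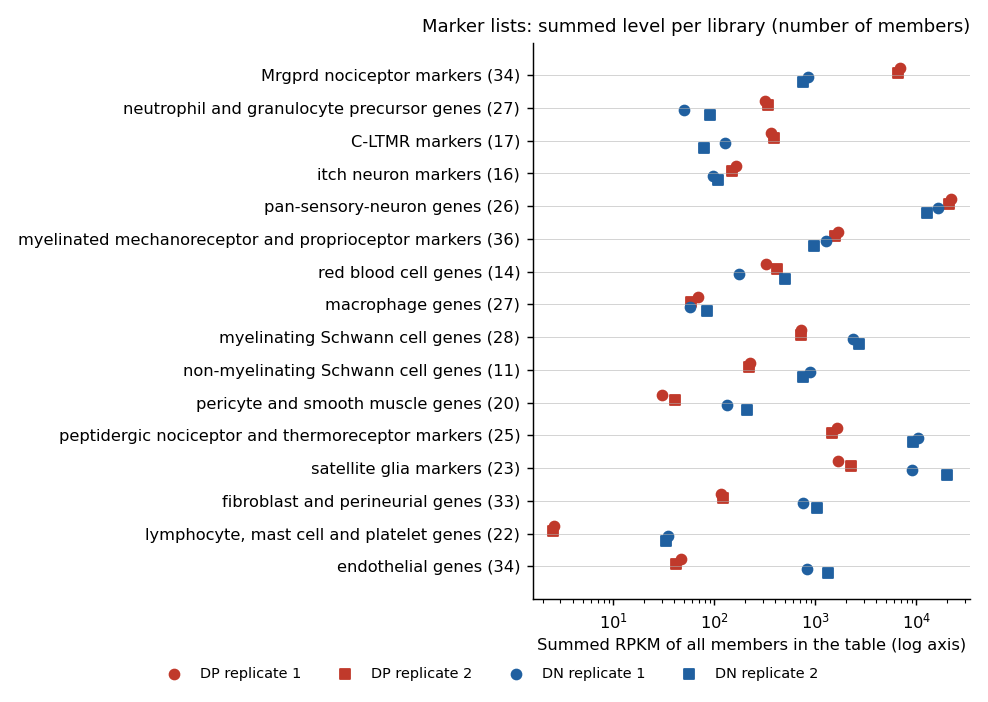
Summed RPKM of every listed marker of 16 cell types (log axis) in each library, with the number of genes summed in brackets, DP in red, DN in blue, replicate 1 as circles and replicate 2 as squares. Mrgprd nociceptor and neutrophil genes sum higher in both DP libraries, and endothelial, fibroblast and glial genes sum higher in both DN libraries.

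Receptors for small ligands and peptides differed family by family. The Mas-related receptors had 10 tested members, 7 higher and 1 lower in DP (70%, against 7.89% of all genes, and 10%; 2 higher and 0 lower of 4 in both). Mrgprb5 was at 22.3 and 17.2 RPKM in DP and 0 and 0.164 RPKM in DN, and Mrgpra2b at 32.4 and 20 against 0.448 and 0.59 RPKM. Mas1, the receptor after which the family is named, was at 0.0096 and 0.0211 RPKM in DP and 0.736 and 0.369 RPKM in DN. Members of the Mrgpra and Mrgprb groups have near-identical copies, so which of them the reads came from is uncertain.

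Of 10 tested opioid, somatostatin, cannabinoid, galanin and NPY receptors 9 were lower in DP and none was higher (0 higher and 6 lower of 6 in both). Npy1r, a neuropeptide Y receptor, was at 1.63 and 1.34 RPKM in DP and 50.9 and 50.9 RPKM in DN (log2 difference -5.02). Sstr2, a somatostatin receptor, was at 0.734 and 0.695 against 39.6 and 29.3 RPKM (-5.39). Both genes were under 2 RPKM in both DP libraries. The receptors of tachykinins, CGRP, endothelin, bradykinin, angiotensin and related peptides had 11 of 15 lower and 3 higher (2 higher and 5 lower of 8 in both). Avpr1a, a vasopressin receptor, was at 0.815 and 0.942 RPKM in DP and 20.1 and 17.1 RPKM in DN, and Ramp3, a partner of CGRP family receptors, at 0.389 and 0.323 against 11.4 and 5.71 RPKM. Cckar, a cholecystokinin receptor, was a higher member, at 6.22 and 5.96 RPKM in DP and 0.957 and 0.651 RPKM in DN. Calcrl and Ntsr2 were lower in DP, and both are also known from other cells of the ganglion, endothelium and glia respectively.

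Lysophospholipid receptors were divided by subtype. Lpar3 and Lpar5 were the 2 higher members, with Lpar5 at 2.57 and 2.22 RPKM in DP and 0 and 0.0204 RPKM in DN. Lpar1 was at 7.94 and 10.9 RPKM in DP and 41.3 and 81.7 RPKM in DN, and the sphingosine phosphate receptor S1pr3 at 7.88 and 9.98 against 99 and 100.2 RPKM. In all, 5 of 8 tested members were lower (1 higher and 4 lower of 6 in both). Prostaglandin, leukotriene and protease-activated receptors and synthases had 5 of 14 higher and 6 lower (2 higher and 4 lower of 9 in both). Ptger3, a prostaglandin E receptor, was at 5.64 and 5.56 RPKM in DP and 0.344 and 0.246 RPKM in DN, and Ptgdr, a prostaglandin D receptor, at 35.1 and 35.3 against 7.09 and 6.88 RPKM. Ptgir, the prostacyclin receptor, was lower in DP at 1.3 and 1.33 against 22.7 and 17.2 RPKM. Different prostaglandin receptors were thus higher in each subset.

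Amine and acetylcholine receptors also differed in both directions. Htr4, a serotonin receptor that couples to stimulatory G proteins, was at 4.02 and 4.37 RPKM in DP and 0 and 0.0333 RPKM in DN, and Adra2b, an alpha2 adrenergic receptor, at 1.2 and 1.19 against 0.0521 and 0.0315 RPKM. Htr1b, which couples to inhibitory G proteins, was at 0.0345 and 0 RPKM in DP and 1.76 and 1.62 RPKM in DN, and Adra2c, another alpha2 receptor, at 0.691 and 1.05 against 8.1 and 7.22 RPKM. Of 15 tested amine receptors 6 were higher and 7 lower (2 higher and 3 lower of 6 in both). Among 10 acetylcholine receptor genes 4 were higher and 5 lower (3 higher and 2 lower of 5 in both; 2 lower with quantile normalization), with the nicotinic subunit Chrna6 at 32.5 and 35.2 RPKM in DP and 13.6 and 9.76 RPKM in DN and Chrnb3 at 0.971 and 1.08 against 7.12 and 7.91 RPKM. Chrna6 and Chrnb3 can form parts of the same receptor, and here they moved in opposite directions.

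Purinergic receptors and ectonucleotidases had 5 of 27 higher and 12 lower in DP (5 higher and 10 lower of 24 in both). P2rx3, the ATP-gated channel of nociceptors, was at 156 and 145 RPKM in DP and 17.8 and 16.2 RPKM in DN. Acpp, the prostatic acid phosphatase that makes adenosine from AMP, was at 141 and 142 against 2.36 and 2.0 RPKM, and Nt5e, a second enzyme of that step, at 24 and 23.1 against 1.1 and 1.18 RPKM. These 3 genes were higher in DP by 3.14, 5.96 and 4.25 on the log2 scale. Entpd1, which splits ATP and ADP on vessels and leukocytes, was at 0.305 and 0.448 RPKM in DP and 5.64 and 9.83 RPKM in DN, and Alpl, an alkaline phosphatase that can also split AMP, at 0.321 and 1.13 against 8.76 and 18.5 RPKM. Entpd1 and Alpl were both higher in DN replicate 2 than in DN replicate 1, as were the summed vessel and satellite glia markers. Which cells these RNAs came from was not tested.

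Receptors of glutamate and GABA also differed by subunit. Of 18 tested glutamate receptor genes 9 were lower in DP and 3 higher, Grik1 among them (3 higher and 2 lower of 11 in both), and 1 was higher without DN replicate 2. Grin2d and Grin3a, NMDA receptor subunits, stood, in DP against DN, at 0.0551 and 0.0777 against 2.55 and 1.64 RPKM for Grin2d and at 0.191 and 0.205 against 2.61 and 1.88 RPKM for Grin3a. GABA and glycine receptors had 5 of 13 higher and 3 lower (4 higher and 1 lower of 10 in both), with 3 higher without DP replicate 2 and 1 lower with quantile normalization. Gabra2 was at 9.84 and 12.6 RPKM in DP and 3.84 and 3.44 RPKM in DN, and Gabrd, the delta subunit, at 0.276 and 0.125 against 6.34 and 3.76 RPKM. The delta subunit was the member with the largest fall, -4.10 on the log2 scale.

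Channels of excitability were called in both directions. TRP channels had 6 of 19 higher (31.6%) and 5 lower (26.3%, near the 25.6% of all genes) in DP (4 higher and 3 lower of 15 in both). Trpc6, a cation channel opened by diacylglycerol, was at 21.1 and 20.2 RPKM in DP and 0.361 and 0.432 RPKM in DN. Trpc7, its close relative, was at 0.185 and 0.0859 RPKM in DP and 5.24 and 4.56 RPKM in DN. Members of a single subfamily were thus at opposite ends, with log2 differences of 5.39 and -4.44. Trpm8, the cold channel, did not pass the filter, at 0.0186 and 0.0519 RPKM in DP and 0.778 and 0.288 RPKM in DN.

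Potassium channel genes differed in both directions. Of 39 voltage-gated channel genes and their partners 8 were higher and 14 lower in DP (6 higher and 7 lower of 29 in both), and 13 and 9 with quantile normalization. Kcnip4 and Kcnab1, auxiliary subunits, stood, in DP against DN, at 234 and 219 against 10.6 and 8.33 RPKM for Kcnip4 and at 118 and 101.5 against 6.83 and 7.82 RPKM for Kcnab1. The silent subunits of the Kcns family separated the subsets, with Kcns1 at 7.22 and 7.11 RPKM in DP and 0.341 and 0.56 RPKM in DN and Kcns2 at 0.158 and 0.0717 against 4.65 and 3.56 RPKM. Kcnc1, a Kv3 channel of fast-spiking neurons, was at 0.345 and 0.524 RPKM in DP and 4.94 and 3.55 RPKM in DN. Kcne4, a further auxiliary subunit, was lower in DP, at 0.145 and 0.212 against 1.61 and 2.92 RPKM, so auxiliary subunits were called in both directions.

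Leak, inward rectifier and calcium-activated potassium channels had 10 of 29 higher and 16 lower in DP (7 higher and 9 lower of 18 in both). Kcnk18, the leak channel TRESK, was at 5.14 and 6.44 RPKM in DP and 0.102 and 0.133 RPKM in DN, and Kcnk13, THIK-1, at 20.4 and 18.1 against 0.794 and 0.886 RPKM. Kcnk2 and Kcnk3, the leak channels TREK-1 and TASK-1, stood, in DP against DN, at 0.828 and 0.632 against 14.4 and 12.4 RPKM for Kcnk2 and at 1.15 and 0.809 against 23.5 and 18.5 RPKM for Kcnk3. Leak channels thus differed in both directions, with differences of 4.76 and 4.36 on one side and -4.03 and -4.30 on the other. Kcnj11, a pore subunit of ATP-sensitive channels, was at 3.32 and 4.02 RPKM in DP and 0.0576 and 0 RPKM in DN, and Kcnj8, its relative in pericytes, at 0.0326 and 0.0119 against 1.04 and 2.66 RPKM. Kcnn1, a small-conductance calcium-activated channel, was at 27.6 and 30.8 against 2.21 and 1.77 RPKM. Kcnj10, an inward rectifier of satellite glia, was at 1.99 and 2.98 RPKM in DP and 13.7 and 29.2 RPKM in DN.

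Sodium channel genes had 3 of 13 higher and 2 lower (3 higher and 1 lower of 12 in both; 1 lower with quantile normalization). Scn3b, a beta subunit, was at 7.29 and 7.3 RPKM in DP and 17.4 and 17.8 RPKM in DN. Calcium channel genes had 4 of 18 higher and 6 lower (2 higher and 3 lower of 13 in both). Cacng2, the AMPA receptor partner stargazin, was at 5.26 and 7.47 RPKM in DP and 0.187 and 0.193 RPKM in DN, and Cacng3 and Cacng4, other members of its group, in DP against DN at 0.359 and 0.451 against 4.25 and 4.17 RPKM for Cacng3 and 0.121 and 0.382 against 3.77 and 5.81 RPKM for Cacng4. The 3 gamma subunits were divided between the subsets. Of the pore subunits Cacna1i was higher in DP and Cacna1h lower, both of the T type and both under 2 RPKM in every library, and the call of Cacna1h ended with quantile normalization. Among acid-sensing, HCN, anoctamin, Piezo and stomatin genes 6 of 18 were higher and 3 lower (6 higher and 2 lower of 17 in both; 1 lower with quantile normalization). Ano3, an anoctamin, was at 8.63 and 10.8 RPKM in DP and 0.44 and 0.455 RPKM in DN, and Accn3 (Asic3), an acid-sensing channel, at 2.43 and 4.35 against 39 and 30.3 RPKM.

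**Figure D4:**
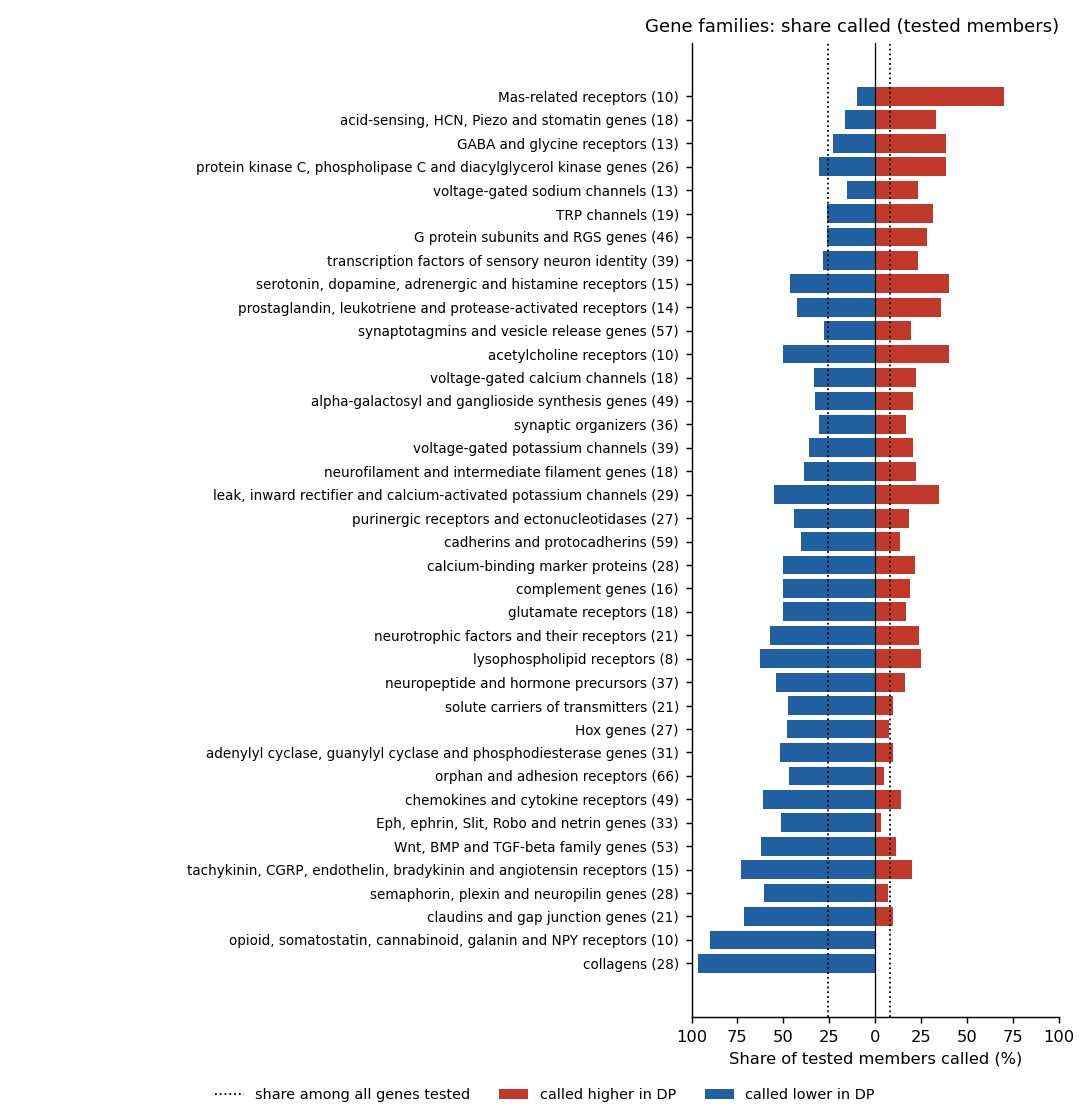
Share of the tested members of 38 gene families called higher in DP (red, right) or lower in DP (blue, left), in percent, with the number of tested members in brackets and dotted lines at the shares among all genes, 7.89% and 25.6%. Members that passed the filter through only 1 subset are included. Mas-related receptors lie at one end, with 7 of 10 members higher, and collagens at the other, with 27 of 28 lower.

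Signalling genes inside the cell differed in both directions. G protein subunits and RGS genes, which shorten G protein signals, had 13 of 46 higher and 12 lower in DP (13 higher and 8 lower of 41 in both). Rgs10 and Rgs4 stood, in DP against DN, at 1076 and 1096 against 125 and 108 RPKM for Rgs10 and at 1252 and 1007 against 167 and 126 RPKM for Rgs4. Gna14, a Gq family alpha subunit, was at 109 and 100.6 against 1.99 and 1.83 RPKM, and Rgs16 at 2.6 and 2.19 against 41.2 and 57.9 RPKM. The summed level of the 58 listed genes was 6055 and 5841 RPKM in DP and 2910 and 2756 RPKM in DN. Protein kinase C, phospholipase C and diacylglycerol kinase genes had 10 of 26 higher and 8 lower (9 higher and 7 lower of 24 in both; 5 lower with quantile normalization), and summed to 918 and 924 RPKM in DP and 274 and 220 RPKM in DN. Prkca was at 98.4 and 109.7 RPKM in DP and 4.79 and 4.07 RPKM in DN, Dgkz, a kinase that removes diacylglycerol, at 187 and 178 against 17.6 and 13.4 RPKM, and Prkcb at 0.937 and 1.28 against 13.5 and 7.94 RPKM. Isoforms of protein kinase C therefore differed in direction, with 4.52 for Prkca and -3.13 for Prkcb. Adenylyl cyclase and phosphodiesterase genes had 3 of 31 higher and 16 lower (3 higher and 5 lower of 19 in both; 6 higher with quantile normalization), with Adcy2 at 0.894 and 1.1 RPKM in DP and 15.7 and 14.3 RPKM in DN and Pde10a at 4.78 and 5.04 against 1.48 and 1.47 RPKM.

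Receptors of neurotrophic factors divided by ligand. Gfra2, the neurturin receptor, was at 139 and 134 RPKM in DP and 4.99 and 8.6 RPKM in DN, and Gfra1, the GDNF receptor, at 9.33 and 8.24 against 1.92 and 1.18 RPKM. Ngfr, the low-affinity neurotrophin receptor p75, was at 8.1 and 9.49 RPKM in DP and 89.7 and 53.3 RPKM in DN. Of 21 tested members 5 were higher and 12 lower (5 higher and 9 lower of 18 in both). Ret and its partners for GDNF and neurturin were thus on the DP side, and Gfra3, the partner for artemin, on the DN side.

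Transcription factors of sensory neuron identity had 9 of 39 higher (23.1%) and 11 lower (28.2%, near the 25.6% of all genes) in DP (7 higher and 6 lower of 32 in both). Casz1, a zinc finger factor, was at 17.1 and 18.7 RPKM in DP and 0.513 and 0.625 RPKM in DN, and Onecut2 at 4.08 and 5.46 against 0.863 and 0.472 RPKM. Bcl11a and Bcl11b, paralogous zinc finger factors, stood, in DP against DN, at 0.479 and 0.615 against 18.3 and 16.8 RPKM for Bcl11a and at 0.594 and 0.589 against 7.67 and 7.13 RPKM for Bcl11b. The POU factors Pou4f2 and Pou4f3 stood at opposite ends, with Pou4f2 at 5.2 and 5.67 RPKM in DP and 0.695 and 0.26 RPKM in DN and Pou4f3 at 1.88 and 1.93 against 44.6 and 41.7 RPKM. Their log2 differences were 3.37 and -4.43. Foxp2, a forkhead factor, was at 0.086 and 0.129 RPKM in DP and 2.83 and 2.04 RPKM in DN.

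Hox genes, which hold the axial position of a neuron, had 2 of 27 tested members higher and 13 lower in DP (2 higher and 9 lower of 23 in both), but 6 higher and 6 lower with quantile normalization. Hoxb5 was at 30.7 and 27.3 RPKM in DP and 11.2 and 7.5 RPKM in DN. Hoxd1, which is known from nociceptors, was at 2.23 and 2.22 against 22.7 and 17.3 RPKM, and Hoxb7 at 2.13 and 2.9 against 17.5 and 15.3 RPKM. The direction of the family as a whole therefore depends on the scaling, while these 3 genes kept their calls with it.

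Most of the guidance genes that were called were lower in DP, as were 76.5% of the calls over all genes. Semaphorins, plexins and neuropilins had 2 of 28 higher and 17 lower (60.7%, against 25.6% of all genes; 2 higher and 11 lower of 20 in both), a share that was not tested against the rest. Plxnc1, the receptor of Sema7a, was at 74.7 and 77.2 RPKM in DP and 3.01 and 2.82 RPKM in DN, and Sema7a at 0.718 and 0.964 against 7.31 and 11.5 RPKM. The receptor was higher in DP and its ligand higher in DN. Eph, ephrin, Slit, Robo and netrin genes had 1 of 33 higher and 17 lower (51.5%; 1 higher and 4 lower of 18 in both), and 6 and 10 with quantile normalization. Of these genes 13 passed only through DN and could be called only lower. Calls among the 18 that passed in both lay near the 6.78% and 18.2% of all such genes. Efna5, an ephrin, was at 8.7 and 10.6 RPKM in DP and 2.39 and 3.32 RPKM in DN, and Ntn5, a netrin, at 0.472 and 0.461 against 15.6 and 17.2 RPKM.

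Cadherins and protocadherins had 8 of 59 higher and 24 lower (4 higher and 15 lower of 44 in both), and 20 and 13 with quantile normalization, so no direction of the family holds under every scaling. Cdh1, the epithelial cadherin, was at 82.1 and 77.4 RPKM in DP and 15 and 19.9 RPKM in DN, and Cdh9 at 1.62 and 2.1 against 0.00884 and 0.032 RPKM. Clstn2 and Clstn3, the calsyntenins, were divided, in DP against DN at 6.17 and 6.59 against 0.892 and 0.562 RPKM for Clstn2 and 0.533 and 0.553 against 6.3 and 3.67 RPKM for Clstn3. Of 36 synaptic organizers 6 were higher and 11 lower (2 higher and 6 lower of 27 in both), and 10 and 4 with quantile normalization. Slitrk4 was at 3.47 and 3.56 RPKM in DP and 0.189 and 0.142 RPKM in DN, and Flrt1 at 0.691 and 0.754 against 7.59 and 6.83 RPKM. Vesicle release genes had 11 of 57 higher and 16 lower (10 higher and 11 lower of 50 in both). Syt7 and Syt6, synaptotagmins, stood, in DP against DN, at 95.9 and 97.9 against 12.2 and 9.23 RPKM for Syt7 and at 29.3 and 27.6 against 2.69 and 1.4 RPKM for Syt6, and Syt16 and Syt2 stood, in DP against DN, at 1.08 and 0.935 against 15.7 and 13.7 RPKM for Syt16 and at 0.103 and 0.146 against 2.25 and 1.59 RPKM for Syt2. Synaptotagmin isoforms were thus divided between the subsets.

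Genes of surface sugars and secreted signals were also called in both directions. Genes of alpha-galactosyl and ganglioside synthesis had 10 of 49 higher and 16 lower in DP (7 higher and 8 lower of 37 in both). St6gal2, a sialyltransferase, was at 1.97 and 2.23 RPKM in DP and 0 and 0.0272 RPKM in DN, and Ugcg, which makes glucosylceramide, at 76.8 and 87.8 against 15.3 and 14.8 RPKM. A4galt, the enzyme of globotriaosylceramide, was at 1.4 and 1.15 RPKM in DP and 26.7 and 15.9 RPKM in DN. DP cells were selected by a lectin that binds alpha-galactosyl sugars, so genes of that pathway are not independent of the sort. Wnt, BMP and TGF-beta family genes had 6 of 53 higher and 33 lower (4 higher and 17 lower of 32 in both). Wnt2b was at 10.8 and 13.3 RPKM in DP and 0.319 and 0.332 RPKM in DN, Wnt5a at 5.02 and 6.61 against 0.574 and 0.467 RPKM, and Acvrl1, a TGF-beta receptor of endothelium, at 0.623 and 0.472 against 9.16 and 14.3 RPKM. Complement genes had 3 of 16 higher and 8 lower (2 higher and 4 lower of 10 in both), with Serping1, the C1 inhibitor, at 308 and 273 RPKM in DP and 48.1 and 49.2 RPKM in DN. Both inhibitors of complement on the DP side, Cd55 and Serping1, were abundant there.

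Over all genes 76.5% of calls were on the lower side, and most calls of the next families were there too. Chemokines and cytokine receptors had 7 of 49 higher and 30 lower in DP (3 higher and 16 lower of 29 in both; 4 higher without DP replicate 2), with Cxcl12, a chemokine of vessels and stroma, at 0.166 and 0.0948 RPKM in DP and 13.5 and 20.1 RPKM in DN. Cx3cl1, fractalkine, was at 0.159 and 0.166 against 8.26 and 9.94 RPKM, and Tnfrsf11a, the receptor RANK, was a higher member at 3.69 and 3.74 against 1.3 and 1.29 RPKM. Orphan and adhesion receptors had 3 of 66 higher and 31 lower (2 higher and 19 lower of 52 in both), and 10 higher with quantile normalization. Gpr149 was at 0.842 and 0.776 RPKM in DP and 15 and 11.8 RPKM in DN, and Gpr35 at 16.6 and 15.4 against 7.07 and 6.28 RPKM. Claudins and gap junction genes had 2 of 21 higher and 15 lower (1 higher and 6 lower of 11 in both; 1 higher without DP replicate 2 or DN replicate 2). Gja1, the connexin that joins glia, was at 0.957 and 1.58 RPKM in DP and 28.5 and 71.3 RPKM in DN. Calcium-binding marker proteins had 6 of 28 higher and 14 lower (6 higher and 13 lower of 27 in both), with Necab3 at 17.7 and 22.9 RPKM in DP and 6.22 and 3.17 RPKM in DN and S100a16 at 7.09 and 10.3 against 53.4 and 83.6 RPKM. Transporters of transmitters had 2 of 21 higher and 10 lower (1 higher and 5 lower of 12 in both; 4 higher with quantile normalization). Both higher members, Slc17a8 and Slc6a19, lost their calls without DP replicate 2, and Slc6a19 also without DP replicate 1 or DN replicate 2. Slc6a7, a proline transporter of neurons, was at 0.135 and 0.107 RPKM in DP and 6.62 and 4.78 RPKM in DN, and Slc1a3, a glutamate transporter of glia, at 0.186 and 0.527 against 4.61 and 14.1 RPKM.

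RNA of ganglion cells other than neurons was also in the DN libraries. Of 33 endothelial genes 31 were lower in DP and none higher (93.9%, against 25.6% of all genes; 0 higher and 9 lower of 11 in both), and the list summed to 46.6 and 41.3 RPKM in DP and 817 and 1318 RPKM in DN. Pecam1, the defining endothelial adhesion molecule, was at 0.196 and 0.245 RPKM in DP and 14.8 and 21.5 RPKM in DN. Myelinating Schwann cell genes had 27 of 28 lower (0 higher and 18 lower of 19 in both) and summed to 726 and 728 RPKM in DP and 2343 and 2670 RPKM in DN. Satellite glia markers had 20 of 23 lower and 1 higher (median -2.99; 1 higher and 18 lower of 21 in both). Fabp7, a fatty acid binding protein of satellite glia, was at 136 and 258 RPKM in DP and 1282 and 3542 RPKM in DN, and Apoe at 499 and 871 against 5710 and 12918 RPKM. RNA of Fabp7 and Apoe was therefore also present in the DP libraries, at a lower level, and DN replicate 2 was the highest library. Which cells this RNA came from in the DP libraries was not tested.

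Fibroblast and perineurial genes had 26 of 31 lower and 3 higher (3 higher and 10 lower of 15 in both), and summed to 116 and 122 RPKM in DP and 758 and 1044 RPKM in DN. Dcn, the matrix proteoglycan decorin, was at 6.45 and 5.25 RPKM in DP and 224 and 245 RPKM in DN. The 3 that were higher in DP are Klf5, Bnc2 and Gpc3, of which Klf5, a zinc finger factor, was at 62.8 and 65 RPKM in DP and 4.64 and 3.78 RPKM in DN. Collagens had 27 of 28 lower and none higher (96.4%, against 25.6% of all genes; 0 higher and 10 lower of 11 in both), with Col1a1 at 0.281 and 0.259 RPKM in DP and 7.27 and 23.9 RPKM in DN. Pericyte and smooth muscle genes had 14 of 17 lower (0 higher and 4 lower of 7 in both), and Pdgfrb, a defining marker of pericytes, was not, at 3.93 and 4.17 RPKM in DP and 2.25 and 3.21 RPKM in DN, and was called higher with quantile normalization (1.15). How far such cells account for the 3553 genes called lower in DP was not tested.

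Neutrophil genes went the other way. Of 18 tested genes of neutrophils and their precursors 15 were higher in DP (83.3%, against 7.89% of all genes) and none lower (8 higher and 0 lower of 11 in both). The list summed to 320 and 340 RPKM in DP and 49.9 and 91.1 RPKM in DN. Ms4a3 is a member, at 47.7 and 42.7 RPKM in DP and 0 and 0.245 RPKM in DN. Its log2 difference of 7.93 was far above those of S100a8 (2.71), S100a9 (2.52) and Elane (2.51), so the list was not uniform. S100a8 and S100a9, the calcium-binding proteins that neutrophils hold in quantity, stood, in DP against DN, at 59.4 and 75.6 against 6.48 and 16 RPKM for S100a8 and at 102 and 115 against 13.4 and 26.3 RPKM for S100a9. Elane, neutrophil elastase, was at 1.21 and 0.426 RPKM in DP and 0.0279 and 0.0674 RPKM in DN, and Cebpe, a factor of granulocyte maturation, was at 0.546 and 0.623 RPKM in DP and listed at 0 in both DN libraries. Of the list's 27 genes 6 were listed at 0 in both DN libraries and 3 in both DP libraries. Whether neutrophil RNA was carried into the DP sort was not tested. Macrophage genes had 5 of 16 higher and 4 lower (1 higher and 4 lower of 11 in both), 8 and 1 with quantile normalization, and 2 higher without DP replicate 1. The defining genes Csf1r and Ptprc were below 0.3 RPKM in all 4 libraries. C1qa, also a defining gene, was called higher, at 0.351 and 0.771 RPKM in DP and 0.119 and 0.0573 RPKM in DN. Of 6 tested red blood cell genes none was higher and 2 were lower in DP. Alas2, the haem synthesis enzyme of red cell precursors, was at 2.89 and 3.53 RPKM in DP and 1.49 and 3.91 RPKM in DN, where the groups overlap. Hba-a1, an alpha-globin gene, was listed at 0 in all 4 libraries, and since it has a near-identical copy this value is uncertain. Cd3e of T cells was listed at 0 in 3 libraries.

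Genes that cells switch on quickly after a stimulus were lower in DP. Of 26 tested immediate early genes 24 were lower and none higher (median -2.57; 0 higher and 23 lower of 25 in both), and their sum was 1740 and 1808 RPKM in DP and 8067 and 11779 RPKM in DN. Fos, the prototype of the group, named here because it was among the 10 genes of highest level in DN, was at 583 and 559 RPKM in DP and 2569 and 4068 RPKM in DN. Arc, an activity-regulated gene, was at 3.68 and 5.87 against 40.5 and 81.8 RPKM, and Nr4a2, an orphan nuclear receptor, at 5.04 and 5.05 against 45.5 and 51.3 RPKM. Both DN libraries exceeded both DP libraries at each of these genes, and DN replicate 2 was again the highest. Interferon response genes had 18 of 26 lower and 1 higher (median -1.74; 1 higher and 16 lower of 24 in both), with Isg15, a ubiquitin-like protein, at 8.12 and 14.8 RPKM in DP and 114 and 268 RPKM in DN. Injury and regeneration genes had 4 of 23 higher and 11 lower (2 higher and 11 lower of 21 in both), and 2 higher without DN replicate 2. Il6, the cytokine, was at 3.35 and 4.58 RPKM in DP and 56.9 and 99.8 RPKM in DN, and Ecel1, an endopeptidase that rises after nerve injury, at 3.61 and 1.64 against 0.316 and 0.20 RPKM. The DN libraries hold several cell types, and which of them these RNAs came from was not tested.

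Few genes of basic cell function were called. Of 82 tested cytosolic ribosomal protein genes none was higher and 2 were lower in DP (median -0.15; 2 higher and 0 lower with quantile normalization), and of 93 nuclear-encoded oxidative phosphorylation subunits none was higher and 4 were lower (median -0.15; 1 higher with quantile normalization). Both medians lay near that of all genes, -0.19. Cox4i2 and Ndufa4l2, the latter also a listed pericyte gene, were among the 4, with Ndufa4l2 at 0.324 and 0.241 RPKM in DP and 2.96 and 4.57 RPKM in DN.

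Genes missing from the smaller deposited table made up most of the calls. Of the 7248 genes 3011 were called (41.5%), 480 higher (6.62%) and 2531 lower in DP (34.9%), against 1636 of 6619 genes in the smaller table (24.7%), 614 higher (9.28%) and 1022 lower (15.4%). Their median difference was -0.47, against 0.01 for genes in the smaller table, and their median level was 2.03 against 22.0 RPKM. Low genes are also those whose difference depends most on the pseudocount, and with a pseudocount of 1 RPKM the calls among them fell to 202 higher and 1408 lower. Calls among them that held under the 3 scalings and with each library left out numbered 377 higher and 1542 lower.

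**Figure D5:**
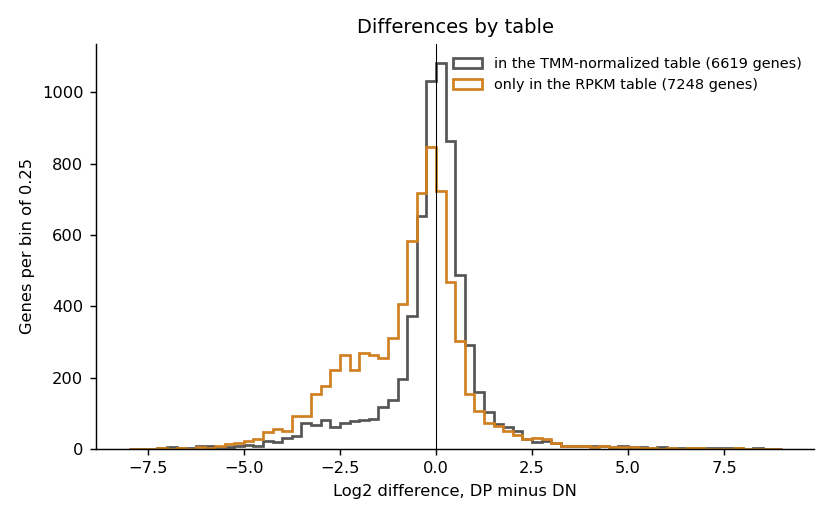
Number of genes per bin of 0.25 in log2 difference (DP minus DN), for the 6619 tested genes in the TMM-normalized table (grey) and the 7248 that are only in the RPKM table (orange). The orange curve is broader on its left side, with a median of -0.47 against 0.01.

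Among genes in the larger table alone, the 10 leading genes on the higher side included 2 Mas-related receptors and 2 transcription factors. Klk5, a kallikrein protease, was at 16 and 15.1 RPKM in DP and 0.0621 and 0.050 RPKM in DN (log2 difference 6.65 ± 0.17, adjusted p = 2.2e-05). Neurog3 (chr10:62133090-62134763), a bHLH factor known from endocrine pancreas, was at 5.22 and 4.88 RPKM in DP and 0 and 0.0201 RPKM in DN (5.55 ± 0.21, adjusted p = 3.0e-05). Barx2 (chr9:31846044-31913285), a homeobox factor, was at 8.94 and 11.3 RPKM in DP and 0.10 and 0.103 RPKM in DN (5.65 ± 0.20, adjusted p = 2.8e-05). Both transcription factors were at or near the level of a few reads in DN and at several RPKM in both DP libraries. Krt27, a keratin of the hair follicle, was at 16 and 15.3 RPKM in DP and 0.25 and 0.262 RPKM in DN, and Serpina1e, an alpha-1 antitrypsin gene, at 10.5 and 10.4 against 0.187 and 0.181 RPKM. Serpina1e has near-identical copies next to it, so its reads are uncertain. 1700011I03Rik (Ccdc192 in RefSeq) was at 12.2 and 12.6 against 0.0531 and 0.128 RPKM, and Heatr7b2 (Mroh2b in RefSeq) at 4.89 and 4.55 against 0.0049 and 0.0118 RPKM.

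On the lower side of those genes were vessel genes and an imprinted RNA. Sox18, a transcription factor of endothelium, was at 0.176 and 0.0967 RPKM in DP and 12.9 and 23.4 RPKM in DN. Gpihbp1, which holds lipoprotein lipase on capillaries, was at 0.0298 and 0.0328 against 5.28 and 15.5 RPKM, and Car4, a carbonic anhydrase on the surface of capillaries, at 0.0549 and 0.10 against 8.33 and 17.1 RPKM. DN replicate 2 was above DN replicate 1 in each. H19, a long noncoding RNA made from the maternal allele, was listed at 0 in both DP libraries and stood at 5.98 and 4.98 RPKM in DN. Slc36a2, an amino acid transporter, was at 0.0684 and 0.0476 RPKM in DP and 9.57 and 8.11 RPKM in DN, and there DN replicate 1 was the higher library.

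By gene class, long noncoding RNAs had 34 of 421 tested members higher and 160 lower in DP (median -0.67), and small nucleolar RNAs had none of 48 higher and 26 lower (median -1.59). Protein-coding genes had 1053 of 13267 higher and 3330 lower (median -0.17). Over all genes tested, 7.89% were higher and 25.6% lower in DP. Calls among class members that passed in both subsets are not given here. Of genes that passed only through DN, 1393 of 1570 were called lower and none higher. How much this adds to the lower count of each class was not tested. RPKM divides reads by gene length, so in a short RNA few reads reach 0.3 RPKM. Calls of small nucleolar RNAs may therefore lie near the floor. Reads of small nucleolar RNAs cannot be told apart from those of the genes whose introns hold them, since the sources used here do not say how strand and intron reads were treated. Odorant and vomeronasal receptors, which are used in the nose, had 4 of 1442 members pass the filter, and 1388 of them were listed at 0 in both DN libraries.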

How the data were processed

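Total RNA of sorted DRG cells (50 ng per the labels' protocols) was amplified, and TruSeq libraries were sequenced. CASAVA 1.8.2, edgeR 2.6.2 and GRCm38 (mm10) are named in the submitters' processing notes. Which step each tool served, which annotation was used and whether strand was kept are not stated there. The authors deposited an RPKM table of 23029 genes, on which the report rests, and a table of 6620 genes whose deposited values are TMM-normalized counts, a normalized signal per gene, used as an alternative. Of the Entrez IDs 22954 were found in RefSeq.

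Because RPKM are not whole counts, the 4 libraries were fitted with limma 3.58.1 in R 4.3.3 on log2(RPKM + 0.1), with an intensity trend, 2 residual degrees of freedom and Benjamini-Hochberg adjustment over 13867 genes. The fit was tested on simulated data. An exact permutation test of 2 against 2 libraries cannot go below p = 0.333, so single genes rest on this model. Depth was estimated from the steps of low RPKM values, and depth and floors cover counting error only. The range of reads per library is given with the results. Figures used Python 3.11.15 with matplotlib 3.10.9.

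The 62 gene lists, the markers and the comparison were chosen with earlier results of these data known. A pattern in the anoctamin list that had taken unrelated genes was corrected after the data were read. The mitochondrial list had no member in the table, and 10 list entries were not matched. Named genes are the 4 markers, the 10 called genes of largest difference in each direction with a higher group of at least 1 RPKM and no overlap, the same among genes absent from the smaller table, and per list its defining markers and up to 4 called members in each direction. Genes named by their level are marked as such. A few genes that the rule names are not reported here. Promoter windows were matched by gene ID and searched on both strands for 6 short words, each spelled out with its shares in the report. The CRE core is also part of the full CRE.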

Additional observations from a re-analysis of the deposited data

How the results depend on the processing

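A test against a 2-fold difference (limma treat) left 3020 calls, 602 of them higher in DP. The TMM-normalized table, which holds 6620 of the genes, gave 1631 calls, 602 higher and 1029 lower. With quantile normalization 2113 genes were higher, 1297 of them absent from the smaller table, where 1550 were lower. Among those absent genes a pseudocount of 1 RPKM left 1610 calls (202 higher, 1408 lower), a mean of at least 1 RPKM left 1751 (263 higher, 1488 lower) and limma treat left 1904 (239 higher, 1665 lower). The cause was not tested. Leaving out each library in turn gave 4465 to 4849 calls, 1010 to 1240 higher and 3455 to 3609 lower, and among absent genes 2914 to 3077, 444 to 524 and 2458 to 2553. With 1 library left in a subset, that library is assumed to vary like the others. The other alternatives kept each count within 1.5 times. Plk1 changed sign with quantile normalization, to 0.0035. Subsets share replicate numbers in the labels: same-numbered deviations correlated at 0.107 over 2 pairs, which does not establish pairing, and a fit with the replicate number as a block gave 4685 calls, 1103 higher and 3582 lower, with 38 gained and 0 lost. No count model was fitted, since whole reads could not be recovered.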
